A study of Gallus gallus with 9 samples.

Results

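Primary myoblasts, the mononucleated precursors of skeletal muscle fibres, were compared between cells kept in growth medium (GM) and cells that had only just come through serial plating (PM). The comparison used 6 of the 9 RNA sequencing libraries of a chicken study of myoblast differentiation, GM replicates 1 to 3 and PM replicates 1 to 3, chosen by their sample titles. The remaining 3 libraries came from differentiated cells and entered only an alternative fit and the account of genes that followed single libraries. GM cells were labelled as proliferating myoblasts in growth medium, and PM cells as primary myoblasts. Both groups came from chicken embryo skeletal muscle, both were at passage 1, and both share the same growth medium of RPMI-1640 with 15% fetal bovine serum and 2% penicillin and streptomycin in the labels. Serial plating moves a cell suspension from dish to dish so that fast-adhering fibroblasts are left behind. The labels give neither the hours in culture nor the embryos' age or sex, and they do not say whether replicates were separate cultures or embryos, so a p-value here covers no more than the spread among these 6 libraries, which may be technical.

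Myoblasts freshly taken from tissue have been through dissociation, while myoblasts kept in growth medium can adhere, spread and divide. How far the PM and GM cells differed in these respects is not given in the labels. Adhesion and spreading act on YAP and TAZ, coactivators that bind the TEAD transcription factors and drive genes such as CTGF and CYR61. The lysosome is the acidic compartment in which proteases, lipases and glycosidases break down cargo, and it is especially rich in macrophages. Dystrophin, sarcoglycans and integrins link the cytoskeleton of muscle cells to the surrounding matrix.

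The deposited tables held 24584188, 23164541 and 27546527 counted reads in GM and 16052542, 16689455 and 20981337 in PM. The groups separated on the first principal component, which held 82.6% of the variance of log2 CPM, read counts scaled to library size. Pearson correlations across genes were 0.982 to 0.993 within groups and 0.900 to 0.932 between them. The biological coefficient of variation was 17.0% in GM and 9.14% in PM. GM replicate 3 stood apart, with a score of -32.9 on the second component against 15.5 and 20.6 for GM replicates 1 and 2. The number of features listed was 26591 in each GM library and 25950 in each PM library, and any difference in how the tables were made cannot be told apart from the groups.

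Levels are given as FPKM, the authors' read counts scaled by gene length and library size, always for replicates 1, 2 and 3 in that order, and values after ± are SDs (n = 3). A log2 ratio is the fitted log2 fold change of GM over PM. Myoblast markers were present in both groups. Summed over 13 myoblast markers, the level was 1868 to 3167 FPKM in GM and 1461 to 1545 FPKM in PM, with none of the 13 at 0. By edgeR's test 7 were higher in GM and 3 lower, or 5 to 8 and 3 to 4 with 1 library left out. No macrophage or fibroblast marker was at 0 in all 6 libraries either. In PM the fibroblast and smooth muscle sums given below were larger, so the myoblast sum does not show which cell type prevailed. DES, the muscle intermediate filament, had 613, 541 and 1279 FPKM in GM, against 151, 158 and 154 FPKM in PM (log2 ratio 2.32 with SE 0.35, adjusted p = 0.0013 by edgeR). The log2 fold change of DES was 1.76 without GM replicate 3. Among the myogenic transcription factors, MYOD1 had 259, 214 and 288 FPKM in GM, against 332, 321 and 344 FPKM in PM, and MYOG, which acts later in differentiation, had 287, 287 and 526 FPKM in GM, against 167, 183 and 180.5 FPKM in PM. MYF5 had 359.8, 336 and 185 FPKM in GM, against 380.2, 421 and 416 FPKM in PM and did not pass the test (log2 ratio -0.56 with SE 0.22, adjusted p = 0.0569 by edgeR). It passed at an adjusted p of 0.00122 in the edgeR fit without GM replicate 3.

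Markers of other cells were present and differed between the groups. Over all tested genes 33.8% were higher in GM by edgeR's test and 31.2% were lower, and the member counts here are to be read against these shares. FPKM over all Ensembl genes also summed to less in GM, at 626616 to 640118, against 729593 to 752604 in PM. The marker sums were not scaled for this, so a small gap between them may reflect the unit. Macrophage markers summed to 146 to 274 FPKM in GM and 867 to 914 FPKM in PM, and 12 of 13 were lower in GM. Melanocyte markers summed to 16.3 to 38.3 FPKM in GM and 229 to 255 FPKM in PM, and those of Schwann cells and neurons to 79.9 to 96.9 FPKM in GM and 143 to 145 FPKM in PM. All 3 sums were lower in every GM library than in any PM library, but of the 10 Schwann cell and neuron markers tested 5 were higher in GM and 2 lower, with a median log2 fold change of 0.43. MLANA supplies most of the melanocyte sum in PM, and of the 8 melanocyte markers tested 5 were lower in GM and 0 higher. Fibroblast markers summed to 1334 to 2173 FPKM in GM and 2529 to 2599 FPKM in PM. Of the 13 members 5, PDGFRA, TCF7L2, OSR1, OSR2 and DPT, were higher in GM and 4 were lower, close to the shares of all tested genes. Smooth muscle markers summed to 930.3 to 1709 FPKM in GM and 1740.3 to 1839.5 FPKM in PM, with 3 of 10 members higher in GM and 4 lower. DES is in both this list and the myoblast list and was higher in GM. It supplies most of the smooth muscle sum in GM but little of it in PM, which narrows the gap between the sums. Endothelial markers summed to 7.70 to 9.44 FPKM in GM and 21.1 to 23.6 FPKM in PM. CLDN5 supplies most of the endothelial sum and was the 1 member that fell, while 3 of 7 were higher, or 1 to 4 with 1 library left out. 2 further lists were higher in GM. Erythroid markers summed to 42.6 to 114 FPKM in GM and 12.96 to 13.8 FPKM in PM, with HBZ at 0 in all 6 libraries and HBAD and RHAG at 0 in PM, and keratinocyte markers summed to 34.99 to 80.9 FPKM in GM and 10.6 to 11.4 FPKM in PM, with KRT5 and ESRP1 at 0 in PM. RHAG, KRT5 and ESRP1 had too few reads in GM as well to be tested. CDH1 supplies most of the keratinocyte sum in GM. Tendon and cartilage markers summed to 21.8 to 28.1 FPKM in GM and 20.7 to 24.2 FPKM in PM, so the sums overlapped, although 5 of 10 members were lower in GM and 2 higher, each by at least 2-fold. In bulk RNA, fewer cells of a type and less RNA per cell cannot be told apart.

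**Figure D1:**
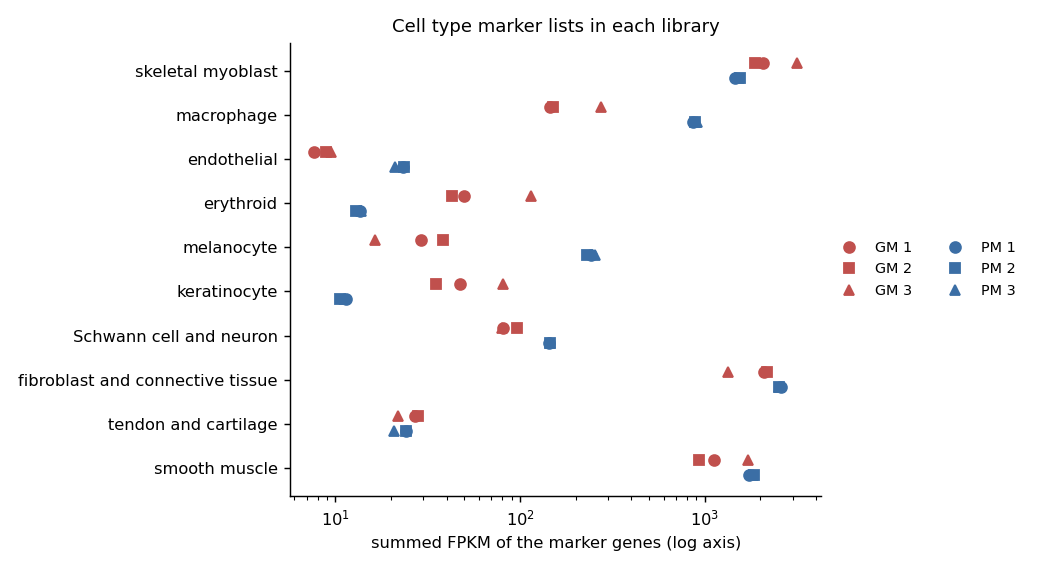
Summed FPKM (log axis) of 10 lists of cell type markers in each GM library (red) and PM library (blue), with 1 point per library. Macrophage and melanocyte points lie lower in GM than in PM, erythroid and keratinocyte points lie higher, and GM replicate 3 (triangle) is the highest GM point for myoblast, macrophage, erythroid, keratinocyte and smooth muscle markers. The myoblast and smooth muscle lists both hold DES.

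Of 14244 genes with enough reads to be tested, 9254 (65.0%) passed edgeR's quasi-likelihood test, where a call means a p below 0.05 after Benjamini-Hochberg adjustment over these genes. Of these, 4814 were higher in GM (33.8%) and 4440 were lower (31.2%). At least a 2-fold change was seen in 2197 genes that were higher (15.4%) and 1536 that were lower (10.8%). The groups' CPM values did not overlap for 5313 genes with GM above PM (37.3%) and 4970 with GM below PM (34.9%). With so many genes called, each list below is to be read against these shares and against the median of all tested genes, a log2 fold change of 0.04.

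The fold change followed gene length. In 8 bins of equal gene number, log2 ratios had a median of -0.25 for genes of 43 to 820 bp, 0.00 in the fifth bin (1857 to 2268 bp) and 0.59 for genes of 4021 to 26070 bp. In the longest bin 62.83% of genes were called higher in GM and 12.97% lower, against 22.35% and 39.92% in the shortest. All 3 GM libraries showed it. Measured from the PM mean, the longest bin lay at 0.59, 0.55 and 0.53 in GM and at 0.06, -0.003 and -0.05 in PM on the log2 scale. The mean listed length of the gene behind a read was 2995, 2949 and 2923 bp in GM, against 2523, 2474 and 2425 bp in PM. GM libraries were also the deeper ones, and the part of depth in the trend was not tested. A second set of log2 fold changes, from a fit with each library's length trend taken out as an offset, is given beside the main values below. In that fit 4698 genes were higher (33.0%) and 4263 lower (29.9%), and 7755 of the main calls were made again in the same direction.

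**Figure D2:**
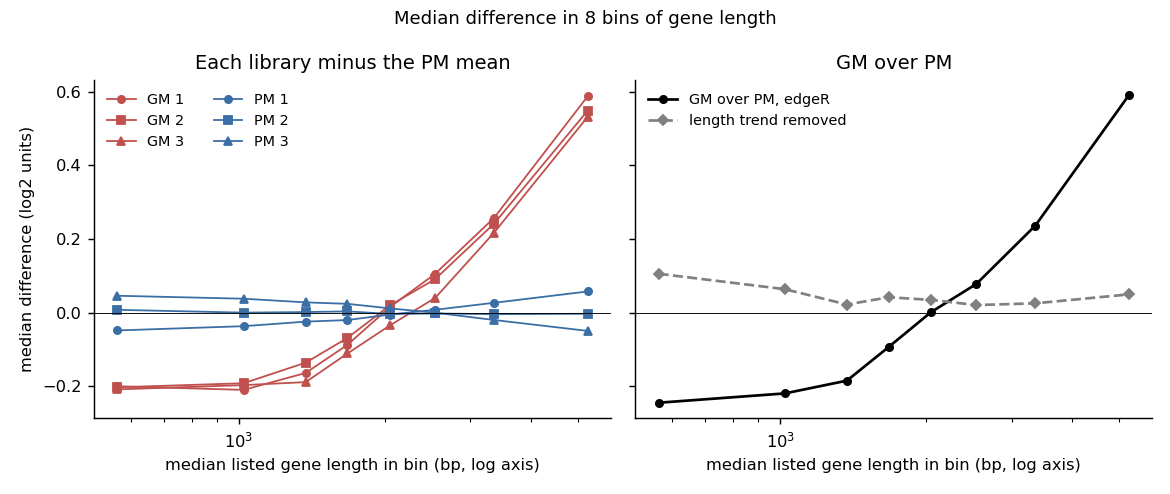
Median difference in log2 units for 8 bins of gene length (log axis, bp). Left, each GM library (red) and PM library (blue) minus the PM mean; right, GM over PM before (black) and after (grey) the length trend was removed. The GM lines run from -0.20, -0.20 and -0.21 in the shortest bin to 0.59, 0.55 and 0.53 in the longest, and the adjusted line stays between 0.02 and 0.11.

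The 30 pathway lists differed in direction. Of these, 21 had a median above 0, and 17 did with the length trend removed. 4 lists changed the sign of their median, which were basement membrane and elastic fibre, primary cilium and Hedgehog, amino acid supply, and matrix proteases. The collagen list had the highest median and the lysosome list the lowest. The medians of the collagen, chromatin, cadherin and basement membrane lists lost the most when the trend was removed. Genes named only to complete a group within a list were chosen after their values were seen.

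**Figure D3:**
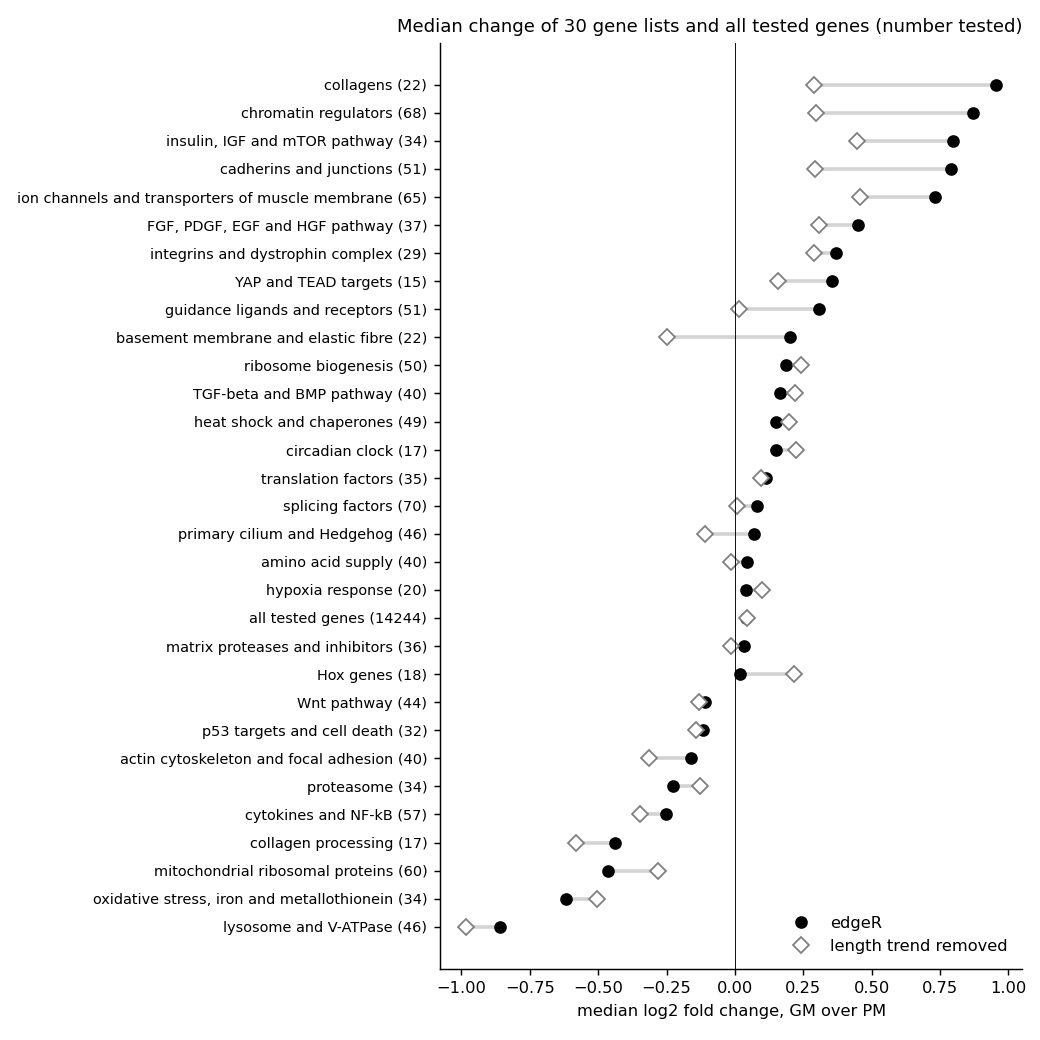
Median log2 fold change, GM over PM, of 30 gene lists and of all tested genes, from edgeR (black) and with the length trend removed (open), with the number of genes tested in parentheses. Lysosome genes have the lowest median on both scales (-0.86 and -0.98), while the chromatin list shifts from 0.87 to 0.30 and the collagen list from 0.95 to 0.29.

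Genes of the lysosome list were lower in GM almost throughout, while LAPTM4B, a lysosomal membrane protein outside the list, was higher (log2 ratio 3.63). In the list of lysosomal enzymes, membrane proteins and V-ATPase subunits, the proton pump that acidifies the lumen, 0 of 46 tested members were higher in GM and 39 were lower (31.2% of all tested genes were lower), with a median log2 fold change of -0.86, or -0.98 with the length trend removed. NPC2, which carries cholesterol out of the lysosome, had 98.2, 112 and 86.9 FPKM in GM, against 459, 481 and 501 FPKM in PM (log2 ratio -2.37 with SE 0.09, adjusted p = 2.50e-06 by edgeR). CTSK, a collagen-degrading cathepsin, had 152, 193 and 136 FPKM in GM, against 654, 700.3 and 705 FPKM in PM (log2 ratio -2.19 with SE 0.11, adjusted p = 6.16e-06 by edgeR). The 3 GM libraries lay below every PM library for both genes, by more than the spread in either group. CTSB, an abundant cysteine protease, had 186, 238 and 252 FPKM in GM, against 643, 694 and 674 FPKM in PM, and CTSH had 26.5, 35.04 and 24.9 FPKM in GM, against 118, 121 and 122 FPKM in PM. CTSS, a cathepsin of antigen-presenting cells, had 14.97, 18.3 and 32.4 FPKM in GM, against 147, 147 and 154 FPKM in PM (log2 ratio -2.84 with SE 0.30, adjusted p = 2.60e-04 by edgeR). Its GM replicate 3 value was the highest in GM, as for the macrophage markers.

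By role, 7 of 8 cathepsins were lower in GM and none was higher (median -1.84), as were 14 of 16 V-ATPase subunits and accessory proteins (median -0.65) and 18 of 20 other enzymes and membrane proteins (median -0.93). The 7 members not called were CTSO, ATP6V0A1, ATP6V0A2, LAMP2, GLB1, TFEB and MITF. TFEB, a transcription factor for lysosomal genes, averaged 24.3 ± 4.72 FPKM in GM, against 27.9 ± 1.05 FPKM in PM. LAMP1, a major protein of the lysosomal membrane, averaged 145 ± 10.2 FPKM in GM, against 289.6 ± 3.70 FPKM in PM (log2 fold change -1.08), while LAMP2 averaged 54.6 ± 4.80 FPKM in GM, against 46.04 ± 5.27 FPKM in PM (0.16). In edgeR fits without 1 library the adjusted p of TFEB was 4.55e-04 and that of ATP6V0A1 0.00263 (both without GM replicate 3), that of CTSO 0.0372 (without GM replicate 2) and that of LAMP2 0.048 (without PM replicate 1). Of the 39 calls 3 were lost in some of these fits. ATP6V1A had adjusted p values of 0.0557 to 0.0779 in 4 of them, MCOLN1 of 0.0639 to 0.0867 in 4 and NPC1 of 0.0547 to 0.0843 in 3. Macrophage markers fell with this list, and their part in it was not tested. By library, the median of the lysosome list, measured from the PM mean, was -0.81, -0.81 and -0.89 in GM on the log2 scale, and that of the macrophage markers was -2.12, -1.97 and -1.09. On the same scale the median of all tested genes was 0.05, 0.06 and 0.01. The lysosome medians differed little among GM libraries, while GM replicate 3 was the highest for the macrophage markers.

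Genes of antioxidant defence and iron storage were lower in GM. In this list 2 of 34 tested members were higher in GM and 21 were lower, with a median log2 fold change of -0.62, or -0.51 with the length trend removed. FTH1, the ferritin heavy chain that stores iron, was among the most abundant genes, with 2507, 2876 and 3306 FPKM in GM, against 12221, 13063 and 13501 FPKM in PM (log2 ratio -2.24 with SE 0.12, adjusted p = 6.71e-06 by edgeR). SRXN1, a sulfiredoxin that restores oxidised peroxiredoxins, had 81.1, 90.8 and 67.7 FPKM in GM, against 280.2, 279 and 319.5 FPKM in PM (log2 ratio -1.97 with SE 0.11, adjusted p = 6.76e-06 by edgeR). For both genes GM stayed below PM in every library. All 4 peroxiredoxins tested were lower, including PRDX1, which averaged 454 ± 92.2 FPKM in GM, against 1009 ± 9.32 FPKM in PM (-1.24). The quinone reductase NQO1 and the glutathione transferase MGST1 were also lower, at -1.48 and -1.30. The 2 members that were higher were GCLC, which makes the glutathione precursor, at 0.91, and TFRC, the transferrin receptor that brings iron into cells, at 0.64. TFRC is long, and its value was -0.03 with the length trend removed. NFE2L2, the factor that drives many of these genes, had a log2 fold change of 0.18 and was not called.

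YAP1, WWTR1 and the TEAD factors were higher in GM, while CTGF and CYR61 were lower. TEAD1, a DNA-binding partner of YAP, had 77.8, 70.1 and 74.6 FPKM in GM, against 23.6, 18.2 and 12.7 FPKM in PM (log2 ratio 1.95 with SE 0.20, adjusted p = 1.64e-04 by edgeR). YAP1 had 81.99, 76.3 and 87.9 FPKM in GM, against 42.6, 34.1 and 27.6 FPKM in PM (log2 ratio 1.16 with SE 0.15, adjusted p = 2.96e-04 by edgeR), and WWTR1, which encodes TAZ, had 83.4, 68.8 and 131 FPKM in GM, against 36.2, 29.98 and 27.8 FPKM in PM (log2 ratio 1.52 with SE 0.27, adjusted p = 0.00257 by edgeR). All 3 genes were higher in every GM library than in any PM library, and within PM replicate 1 was the highest each time. TEAD3 and TEAD4 were higher as well, at 0.75 and 0.68, which made 5 of 5. With the length trend removed their median was 1.24, against 1.16 before.

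Against this, CTGF, a secreted matricellular protein, had 216, 166 and 184 FPKM in GM, against 777, 796 and 808 FPKM in PM (log2 ratio -2.16 with SE 0.11, adjusted p = 5.24e-06 by edgeR). CYR61, of the same protein family, had 227, 180.1 and 185 FPKM in GM, against 529.7, 535 and 551 FPKM in PM (log2 ratio -1.53 with SE 0.10, adjusted p = 1.09e-05 by edgeR). Both were lower in all 3 GM libraries than in any PM library. Of the 10 reported targets in the list 3 were higher and 3 lower, shares close to those of all tested genes (33.8% and 31.2%), and with the length trend removed 1 was higher and 4 lower. PTPN14, a phosphatase that binds YAP in mammals, had 26.6, 26.9 and 25.9 FPKM in GM, against 6.48, 4.45 and 3.08 FPKM in PM (log2 ratio 2.43 with SE 0.23, adjusted p = 1.14e-04 by edgeR). ASAP1, an adaptor of focal adhesions, was higher at 0.35, but its edgeR adjusted p was 0.15, 0.0852 and 0.128 without GM replicate 1, PM replicate 2 or PM replicate 3. ANKRD1, a titin-associated protein of striated muscle, averaged 618 ± 168 FPKM in GM, against 388 ± 0.694 FPKM in PM (0.59), and its edgeR adjusted p was 0.0868, 0.0748 and 0.081 without PM replicate 1, 2 or 3. FSTL1, a secreted glycoprotein, was lower at -0.65. CRIM1, NUAK2, FJX1 and DLC1 were not called, but edgeR's adjusted p was 0.00812 for FJX1 without GM replicate 3 and 0.0431 for CRIM1 without PM replicate 3. The whole list held 8 higher and 3 lower of 15.

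**Figure D4:**
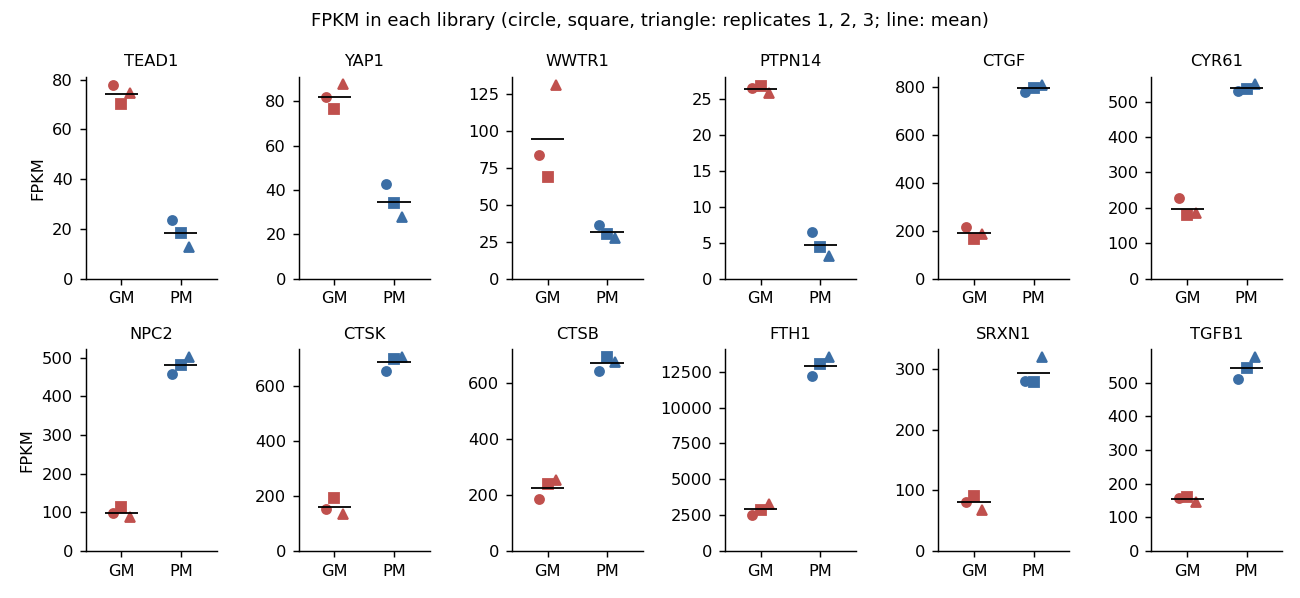
FPKM of 12 genes in each library, GM in red and PM in blue (circle, square and triangle for replicates 1, 2 and 3; line, mean; each axis starts at 0). TEAD1, YAP1, WWTR1 and PTPN14 are higher in all GM libraries, and CTGF, CYR61, NPC2, CTSK, CTSB, FTH1, SRXN1 and TGFB1 are lower in all of them.

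Receptors and SMAD genes of the TGF-beta and BMP list were mostly higher in GM, while its ligands were divided. In the list 17 of 40 tested members were higher in GM and 13 were lower, with a median log2 fold change of 0.17, or 0.22 with the length trend removed. Of 10 ligands 3 were higher and 3 lower (median -0.07), close to the shares of all tested genes. The ligand TGFB1 had 157, 161 and 146 FPKM in GM, against 511, 543 and 577 FPKM in PM (log2 ratio -1.90 with SE 0.08, adjusted p = 2.60e-06 by edgeR). ID4, a target of BMP signalling that blocks helix-loop-helix factors, had 196, 174 and 184 FPKM in GM, against 896, 1006 and 1002 FPKM in PM (log2 ratio -2.47 with SE 0.09, adjusted p = 2.35e-06 by edgeR). Both were lower in GM by far more than the replicate spread. Of 9 receptors 6 were higher and 1 was lower, and TGFBR2 averaged 38.1 ± 2.45 FPKM in GM, against 13.2 ± 1.46 FPKM in PM (1.44). Of 10 SMAD proteins and SMAD regulators 8 were higher, with SKI, a repressor of SMAD activity, at 19.4, 15.8 and 16.9 FPKM in GM, against 4.72, 5.13 and 3.63 FPKM in PM (log2 ratio 1.87 with SE 0.15, adjusted p = 2.46e-05 by edgeR). Of 6 secreted antagonists none was higher and 3 were lower, with GREM1 at -1.65. The decoy receptor BAMBI was lower too, at -1.53. GDF6, a BMP-type ligand, had 7.37, 7.40 and 19.2 FPKM in GM, against 1.81, 1.22 and 1.06 FPKM in PM, with a log2 fold change of 3.0 (SE 0.51) that was 2.31 without GM replicate 3.

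Growth factor and receptor tyrosine kinase genes were more often higher than lower in GM. In the FGF, PDGF, EGF and HGF list 18 of 37 tested members were higher in GM and 5 were lower, with a median log2 fold change of 0.45, or 0.31 with the length trend removed. ERBB4, a neuregulin receptor, had 3.81, 3.29 and 9.35 FPKM in GM, against 0.0606, 0.0146 and 0.0347 FPKM in PM (log2 ratio 7.12 with SE 0.76, adjusted p = 2.63e-04 by edgeR). EGF, the growth factor precursor, had 10.7, 8.57 and 22.7 FPKM in GM, against 0.535, 0.405 and 0.496 FPKM in PM (log2 ratio 4.80 with SE 0.49, adjusted p = 2.21e-04 by edgeR). FGF13, an intracellular FGF family member that binds sodium channels, had 20.6, 21.3 and 50.03 FPKM in GM, against 1.55, 1.84 and 2.20 FPKM in PM (log2 ratio 3.95 with SE 0.48, adjusted p = 3.96e-04 by edgeR). Each was higher in all 3 GM libraries, and GM replicate 3 held the highest value. Without GM replicate 3 the log2 fold changes were 6.42 for ERBB4, 4.19 for EGF and 3.33 for FGF13. ERBB3, the neuregulin receptor that signals with ERBB2, had a log2 fold change of 3.22 (SE 0.45) and of 2.62 without that library.

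The insulin, IGF and mTOR genes were mostly higher as well. In it 23 of 34 tested members were higher in GM and 8 were lower, with a median log2 fold change of 0.80, or 0.45 with the length trend removed. IGF1R, the receptor for IGF1, had 22.5, 20.5 and 22.3 FPKM in GM, against 5.18, 4.47 and 3.96 FPKM in PM (log2 ratio 2.18 with SE 0.11, adjusted p = 5.72e-06 by edgeR). All 5 receptors and substrates tested were higher. With the length trend removed 4 of these were higher and 1 lower, IGF2R, at -0.29 against 0.59. IRS1, the least raised of the 5 at 0.43, had edgeR adjusted p values of 0.0687, 0.0511 and 0.058 without GM replicate 1, PM replicate 1 or PM replicate 3. MTOR, the kinase of both mTOR complexes, averaged 24.2 ± 3.32 FPKM in GM, against 7.75 ± 0.847 FPKM in PM (1.57, 0.81 with the trend removed). The IGF binding proteins differed among themselves. IGFBP4 had 256, 229 and 178 FPKM in GM, against 649, 736 and 731 FPKM in PM (log2 ratio -1.76 with SE 0.12, adjusted p = 1.48e-05 by edgeR), while IGFBP5 had 21.8, 25.6 and 24.5 FPKM in GM, against 7.998, 7.10 and 7.18 FPKM in PM (log2 ratio 1.61 with SE 0.12, adjusted p = 2.24e-05 by edgeR). TRIM63, a ubiquitin ligase of muscle atrophy, had 13.5, 15.5 and 24.4 FPKM in GM, against 4.25, 5.51 and 4.31 FPKM in PM (log2 ratio 1.85 with SE 0.26, adjusted p = 5.05e-04 by edgeR).

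Chromatin regulators were mostly higher in GM, and by less once the length trend was removed. In this list 48 of 68 tested members were higher in GM and 9 were lower, with a median log2 fold change of 0.87, or 0.30 with the length trend removed, and in the adjusted fit the counts were 37 higher and 13 lower. The median length of its genes was 4813 bp, against 1857 bp over all tested genes. TET1, which oxidises methylated cytosine, had 10.3, 8.72 and 10.4 FPKM in GM, against 1.51, 1.23 and 1.10 FPKM in PM (log2 ratio 2.86 with SE 0.15, adjusted p = 5.73e-06 by edgeR, 2.25 with the trend removed). EP300, a histone acetyltransferase and coactivator, had 30.03, 26.4 and 28.01 FPKM in GM, against 5.33, 5.65 and 5.40 FPKM in PM (log2 ratio 2.28 with SE 0.08, adjusted p = 2.35e-06 by edgeR, 1.54 with the trend removed). ATRX, a chromatin remodeller, had 43.3, 40.7 and 37.9 FPKM in GM, against 9.76, 8.57 and 6.84 FPKM in PM (log2 ratio 2.19 with SE 0.12, adjusted p = 6.87e-06 by edgeR, 1.47 with the trend removed). The groups did not overlap for any of these 3, and each was also called in the adjusted fit.

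Chromatin classes differed. All 6 histone demethylases were higher (median 0.98), as were 8 of 10 histone methyltransferases (median 0.90) and 5 of 6 TET and DNMT enzymes (median 1.61). The demethylase KDM4C, at 0.46, had edgeR adjusted p values of 0.0621, 0.0634 and 0.0692 without GM replicate 1, PM replicate 2 or PM replicate 3. In the adjusted fit 4 demethylases were higher (median 0.48), 7 methyltransferases were higher and 1 lower (median 0.55), and 4 TET and DNMT enzymes were higher and 1 lower (median 1.31). Of 8 deacetylases 3 were higher and 4 lower. HDAC4 and HDAC9 were higher, at 1.40 and 1.63, while HDAC2, HDAC3, HDAC7 and HDAC8 were lower, at -0.41, -0.28, -0.71 and -0.66. SETDB1, a histone H3 lysine methyltransferase, was lower at -0.47 and at -1.37 with the length trend removed.

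Splicing factors differed by class. Over the list 29 of 70 tested members were higher in GM and 24 were lower, with a median log2 fold change of 0.08, or 0.01 with the length trend removed. Without PM replicate 3 both counts were 19. A group of 14 genes was taken by symbol for the Sm and LSm ring proteins, which form the core of the spliceosomal particles. In it 13 were lower and none was higher (median -0.67, -0.38 with the trend removed). In the adjusted fit 11 were lower and none was higher. The 1 not called in the main fit was SNRPB2, at -0.19, a U2 particle protein that is not part of the ring. SNRPG, of the Sm ring, had 125, 172 and 134 FPKM in GM, against 333, 349 and 347 FPKM in PM (log2 ratio -1.35 with SE 0.11, adjusted p = 2.83e-05 by edgeR). Of 13 genes of the CELF, RBFOX, MBNL, QKI, NOVA and PTBP families, which set alternative splicing, 11 were higher and 1 was lower (median 0.97, 0.96 with the trend removed). In the adjusted fit 8 of them were higher and 2 lower. QKI had 210.3, 189 and 237 FPKM in GM, against 70.3, 64.4 and 52.8 FPKM in PM (log2 ratio 1.68 with SE 0.13, adjusted p = 2.69e-05 by edgeR). RBFOX2 had 70.5, 67.1 and 85.5 FPKM in GM, against 24.3, 25.5 and 22.5 FPKM in PM (log2 ratio 1.55 with SE 0.12, adjusted p = 2.34e-05 by edgeR), and CELF1 had 20.3, 18.6 and 23.7 FPKM in GM, against 6.97, 5.40 and 5.14 FPKM in PM (log2 ratio 1.76 with SE 0.15, adjusted p = 3.25e-05 by edgeR). All 3 were higher in each GM library than in any PM library. The gene of these families that was lower in the main fit was PTBP3, at -1.57. SR proteins and hnRNP proteins changed less. Of 7 SR proteins 3 were higher and 2 lower (median 0.03, 0.11 with the trend removed). Of 12 hnRNP proteins 6 were higher and none was lower (median 0.17, 0.19 with the trend removed). SRSF6, HNRNPA2B1 and HNRNPH3, called higher, lost their calls in some edgeR fits without 1 library. So did RBFOX1, RBFOX3, MBNL1 and PTBP1, called higher, and LSM4 and LSM7, called lower.

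Mitochondrial ribosomal protein genes were lower in GM. Of 60 tested, 45 were lower and 1, MRPL15, was higher, with a median log2 fold change of -0.46, or -0.28 with the length trend removed. In the adjusted fit 35 were lower and 3 higher. These are short genes, with a median length of 1160 bp. MRPS6, of the small subunit, had 17.2, 19.8 and 14.9 FPKM in GM, against 99.3, 104 and 105 FPKM in PM (log2 ratio -2.66 with SE 0.10, adjusted p = 2.35e-06 by edgeR). MRPL17, of the large subunit, had 72.5, 79.4 and 74.4 FPKM in GM, against 233, 268 and 269 FPKM in PM (log2 ratio -1.85 with SE 0.09, adjusted p = 4.25e-06 by edgeR). Both were lower in each GM library than in any PM library. The large subunit had 31 of 38 genes lower and the small subunit 14 of 22. Proteasome genes were lower to a smaller extent, with 18 of 34 lower and 2 higher (a median log2 fold change of -0.23, or -0.13 with the length trend removed). Without GM replicate 3 the edgeR fit called 28 of them lower, and 12 to 17 were lower with any other library left out. PSMB3, a subunit of the catalytic core, had 171, 179.9 and 188 FPKM in GM, against 325, 332 and 356 FPKM in PM (log2 ratio -0.99 with SE 0.08, adjusted p = 2.84e-05 by edgeR).

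Genes of cytosolic protein synthesis were more often higher than lower in GM. Ribosome biogenesis genes had 25 of 50 higher and 10 lower, with a median log2 fold change of 0.19, or 0.24 with the length trend removed. HEATR1, a factor of small subunit assembly, had 28.5, 26.2 and 25.4 FPKM in GM, against 12.03, 11.2 and 11.2 FPKM in PM (log2 ratio 1.13 with SE 0.07, adjusted p = 1.03e-05 by edgeR). NOLC1, a nucleolar phosphoprotein, had 133, 123 and 133 FPKM in GM, against 67.4, 65.7 and 58.1 FPKM in PM (log2 ratio 0.94 with SE 0.08, adjusted p = 3.94e-05 by edgeR). Neither gene's groups overlapped. Translation factors had 17 of 35 higher and 9 lower (median 0.11), or 13 to 17 higher and 2 to 11 lower with 1 library left out. Ribosome biogenesis genes had 20 to 24 higher and 5 to 12 lower in the same fits. EEF1A2, the elongation factor of muscle and nerve, had 91.6, 83.2 and 236 FPKM in GM, against 29.6, 35.2 and 34.4 FPKM in PM (log2 ratio 1.98 with SE 0.44, adjusted p = 0.00674 by edgeR), and 1.26 without GM replicate 3.

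A small set of genes followed single libraries and not the groups. RRP7A, RRP36, RRP15 and RRP12, named for ribosomal RNA processing, were high in PM replicates 1 and 3 and low in PM replicate 2. RRP7A had 0.910, 1.03 and 1.07 FPKM in GM, against 40.1, 1.58 and 38.3 FPKM in PM. RRP36 had 2.45, 2.55 and 1.66 FPKM in GM, against 51.2, 3.22 and 56.1 FPKM in PM, and RRP15 had 1.67, 2.44 and 2.31 FPKM in GM, against 35.2, 2.07 and 40.5 FPKM in PM. PM replicates 1 and 3 stood above all other libraries for these 3 genes. RRP12 had 1.56, 1.37 and 1.36 FPKM in GM, against 19.6, 0.954 and 19.6 FPKM in PM. An unnamed mitochondrial gene of 976 bp (ENSGALG00000036956, chromosome MT, 1297 to 2272, plus strand) had 16.9, 13.3 and 15.4 FPKM in GM, against 582, 20.9 and 599 FPKM in PM. In all, 7 tested genes stood at least 5-fold higher in PM replicates 1 and 3 than in PM replicate 2, with at least 5 FPKM in both, and all 7 were called lower in GM, 6 of them also with the length trend removed. RRP15 and RRP12 overlapped between the groups, while GM lay below PM for RRP7A and RRP36 by a narrow margin in PM replicate 2. Their values in PM replicate 2 were 0.667 to 1.57 times the GM mean. Replicate 1 of the differentiated cells was also high for 6 of the 7, at least 5-fold above the other two. There the mitochondrial gene had 647, 11.01 and 13.6 FPKM and RRP36 had 35.2, 2.22 and 2.11 FPKM. RRP7A and RRP36 were among the 12 largest falls of genes with a symbol, no overlap and at least 10 FPKM, at -4.81 and -4.15, but edgeR's adjusted p was 0.106 and 0.115 without GM replicate 3. For RRP15 it was 0.127 without that library, and for RRP12 0.16 without it, 0.0804 without GM replicate 2, and 0.0519 and 0.0522 without PM replicate 1 or 3. The mitochondrial gene's adjusted p was 0.113 in edgeR's fit without GM replicate 3. The 7 falls thus rest on 2 of 3 PM libraries, and the cause was not tested.

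**Figure D5:**
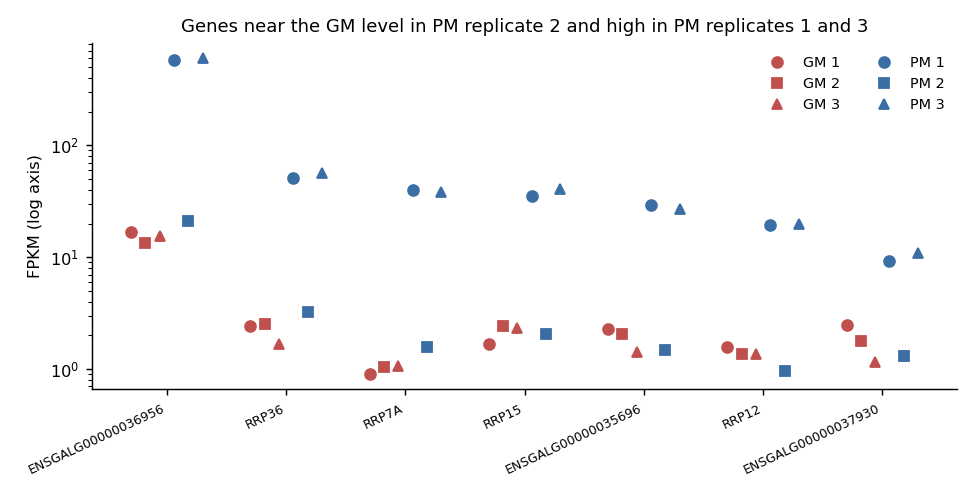
FPKM (log axis) of 7 genes in each GM library (red) and PM library (blue). PM replicate 2 (blue square) lies near the GM points, at 0.667 to 1.57 times the GM mean, and PM replicates 1 and 3 lie above all other points of each gene.

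Most collagen genes were higher in GM, but not the fibrillar ones. In this list 13 of 22 tested members were higher in GM and 3 were lower, with a median log2 fold change of 0.95, or 0.29 with the length trend removed, and the adjusted fit gave 11 higher and 8 lower. COL6A1, a chain of the beaded type VI filament around muscle cells, had 396, 374 and 399 FPKM in GM, against 133, 126 and 127 FPKM in PM (log2 ratio 1.52 with SE 0.07, adjusted p = 4.37e-06 by edgeR, 1.11 with the trend removed). All 3 type VI and all 4 type IV genes tested were higher, in both fits. Of the 4 fibrillar genes tested, COL1A2, COL3A1, COL5A1 and COL5A2, none was called, and in the adjusted fit all 4 were lower (median -0.28 before and -1.02 after). In edgeR fits without GM replicate 2 or 3, COL1A2 had adjusted p values of 0.0459 and 0.0499 and COL5A2 of 0.0445 and 0.0451, which brought the genes lower in the list to 5. COL19A1, a collagen of basement membrane zones, had 4.88, 4.62 and 12.7 FPKM in GM, against 0.213, 0.261 and 0.267 FPKM in PM (log2 ratio 4.82 with SE 0.58, adjusted p = 4.54e-04 by edgeR), and 4.11 without GM replicate 3. COL8A1, a short-chain network collagen, had 1.53, 0.886 and 1.14 FPKM in GM, against 20.2, 20.4 and 19.3 FPKM in PM (log2 ratio -4.15 with SE 0.18, adjusted p = 3.75e-06 by edgeR).

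Genes for collagen processing were lower in GM. Of 17 tested, 11 were lower and 2 higher, with a median log2 fold change of -0.44, or -0.58 with the length trend removed. P3H1, a prolyl 3-hydroxylase, had 40.5, 41.1 and 27.5 FPKM in GM, against 89.2, 88.7 and 89.4 FPKM in PM (log2 ratio -1.39 with SE 0.13, adjusted p = 5.23e-05 by edgeR). FKBP10, a collagen chaperone, had 80.8, 82.5 and 54.1 FPKM in GM, against 140.0, 148 and 148 FPKM in PM (log2 ratio -1.10 with SE 0.14, adjusted p = 2.11e-04 by edgeR). GM lay below PM in every library for both. The fibroblast markers also summed to less in GM, as did FPKM over all Ensembl genes. GM replicate 3 was the lowest for P3H1, FKBP10 and the fibroblast sum. The part of the fibroblast markers in these falls was not tested. The microfibril genes MFAP2 and MFAP5 were lower, at -2.49 and -1.74. FBN1, the fibrillin they bind, had a log2 fold change of 0.94 (SE 0.16), but 0.09 with the trend removed, where it was not called. TNC, a matrix glycoprotein of developing muscle and tendon, had 359.6, 338 and 233 FPKM in GM, against 148, 138 and 128 FPKM in PM (log2 ratio 1.07 with SE 0.14, adjusted p = 2.81e-04 by edgeR, 0.39 with the trend removed). Among matrix proteases, 10 of 36 were higher and 10 lower, and in the adjusted fit 9 were higher and 15 lower. MMP13, a collagenase, had 28.2, 22.8 and 45.5 FPKM in GM, against 2.71, 2.72 and 2.93 FPKM in PM (log2 ratio 3.45 with SE 0.30, adjusted p = 9.32e-05 by edgeR).

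Matrix receptors changed their makeup. In the list of integrins and the dystrophin complex 16 of 29 tested members were higher in GM and 7 were lower, with a median log2 fold change of 0.37, or 0.29 with the length trend removed. ITGA7, the laminin-binding integrin chain of muscle, had 5.95, 5.09 and 15.02 FPKM in GM, against 0.761, 1.31 and 0.821 FPKM in PM (log2 ratio 3.11 with SE 0.53, adjusted p = 0.00212 by edgeR), and 2.38 without GM replicate 3. SGCD, a sarcoglycan, had 42.02, 39.2 and 66.2 FPKM in GM, against 12.2, 8.82 and 7.40 FPKM in PM (log2 ratio 2.31 with SE 0.28, adjusted p = 3.25e-04 by edgeR). DTNA and SSPN, further members of the complex, were higher too, at 1.79 and 1.56. DMD itself, at 1.65, came to 0.42 with the length trend removed. Against these, ITGB5, a vitronectin receptor chain, had 26.6, 28.1 and 31.9 FPKM in GM, against 95.7, 98.3 and 101 FPKM in PM (log2 ratio -1.85 with SE 0.10, adjusted p = 6.38e-06 by edgeR), and ITGA11, a collagen receptor chain of mesenchymal cells, had 11.5, 11.6 and 5.93 FPKM in GM, against 54.2, 52.7 and 49.8 FPKM in PM (log2 ratio -2.53 with SE 0.23, adjusted p = 1.14e-04 by edgeR). Both were lower in each GM library. ITGB1, the common partner chain, averaged 343 ± 14.2 FPKM in GM, against 331 ± 14.5 FPKM in PM and was not called.

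Cell junction genes were more often higher than lower in GM. In this list 30 of 51 tested members were higher in GM and 3 were lower, with a median log2 fold change of 0.79, or 0.29 with the length trend removed. In the adjusted fit 22 were higher and 7 lower. With 1 library left out, 23 to 30 were higher and 2 to 4 lower. GJD2, a connexin of electrical synapses, had 13.2, 12.2 and 24.5 FPKM in GM, against 1.94, 1.40 and 1.98 FPKM in PM (log2 ratio 3.14 with SE 0.35, adjusted p = 1.81e-04 by edgeR). PKP2, a desmosomal plaque protein, had 5.14, 4.62 and 7.35 FPKM in GM, against 1.48, 0.974 and 1.11 FPKM in PM (log2 ratio 2.19 with SE 0.24, adjusted p = 1.19e-04 by edgeR). CDH1, the epithelial cadherin, had 30.1, 20.7 and 51.99 FPKM in GM, against 4.81, 5.43 and 5.30 FPKM in PM (log2 ratio 2.65 with SE 0.37, adjusted p = 8.04e-04 by edgeR). It is also 1 of the keratinocyte markers and supplies most of their sum in GM, so that sum is not separate from CDH1. All 7 keratinocyte markers tested were higher in GM, or 5 to 7 with 1 library left out. Their part in the rise of CDH1 was not tested. CLDN5, a tight junction protein of endothelium, had 4.72, 5.28 and 5.41 FPKM in GM, against 19.99, 19.3 and 17.5 FPKM in PM (log2 ratio -1.96 with SE 0.11, adjusted p = 7.13e-06 by edgeR). It is also 1 of the endothelial markers. Muscle membrane channels and transporters had 36 of 65 higher and 11 lower, with a median log2 fold change of 0.73, or 0.46 with the length trend removed. ANO6, a lipid scramblase, had 8.96, 10.3 and 8.07 FPKM in GM, against 1.75, 2.09 and 1.72 FPKM in PM (log2 ratio 2.20 with SE 0.12, adjusted p = 6.38e-06 by edgeR).

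Cytokine genes were more often lower than higher in GM. In the list of cytokines, their receptors and NF-kB genes 10 of 57 tested members were higher in GM and 29 were lower, with a median log2 fold change of -0.25, or -0.35 with the length trend removed. Of 9 chemokines and interleukins 7 were lower and 1 higher. CCL4, a chemokine, had 28.5, 36.2 and 25.3 FPKM in GM, against 249, 247 and 257 FPKM in PM (log2 ratio -3.15 with SE 0.12, adjusted p = 2.50e-06 by edgeR). CCL5 had 1.47, 1.09 and 0.658 FPKM in GM, against 16.7, 14.5 and 22.8 FPKM in PM (log2 ratio -4.15 with SE 0.34, adjusted p = 2.72e-05 by edgeR). The 3 GM values lay far below the PM values for both. IL6R, an interleukin 6 receptor chain, had 3.79, 5.32 and 8.04 FPKM in GM, against 30.6, 30.2 and 32.1 FPKM in PM (log2 ratio -2.51 with SE 0.26, adjusted p = 1.62e-04 by edgeR), with GM replicate 3 the highest in GM. LIFR, the receptor for leukaemia inhibitory factor, was higher, at 1.47. NFKB1, REL and STAT3 were not called. RELA and NFKBIA were lower, at -0.25 and -0.24, and TRAF1 and TRAF2 were higher, at 0.46 and 0.33. Each of them lost its call in some edgeR fits without 1 library. Macrophage markers were lower in GM as well, and their part in these falls was not tested.

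Guidance genes and Wnt genes were mixed. In the guidance list 24 of 51 tested members were higher in GM and 12 were lower, with a median log2 fold change of 0.31, or 0.01 with the length trend removed. The adjusted fit gave 19 higher and 15 lower. Semaphorins had 9 of 15 higher and 4 lower, and plexins, their receptors, 5 of 7 higher and none lower. In the adjusted fit semaphorins had 8 higher and 5 lower, and plexins 4 higher and 1 lower. SEMA6D had 12.5, 13.4 and 19.4 FPKM in GM, against 4.04, 2.92 and 2.93 FPKM in PM (log2 ratio 2.12 with SE 0.22, adjusted p = 1.17e-04 by edgeR). PLXNA1 averaged 174 ± 37.3 FPKM in GM, against 72.8 ± 7.86 FPKM in PM (1.18). Netrins, slits and their receptors had 3 of 12 higher and 6 lower. NEO1, a receptor for netrins and RGM proteins, had 10.4, 9.18 and 12.7 FPKM in GM, against 4.21, 3.93 and 3.21 FPKM in PM (log2 ratio 1.44 with SE 0.16, adjusted p = 1.26e-04 by edgeR). In the Wnt list 11 of 44 tested members were higher in GM and 16 were lower, with a median log2 fold change of -0.11, or -0.13 with the length trend removed. Secreted antagonists had 1 of 8 higher and 5 lower, among them FRZB at -1.32 and DKK3 at -1.22. RSPO3, which strengthens Wnt signals, had 4.08, 2.87 and 3.07 FPKM in GM, against 13.1, 13.7 and 13.1 FPKM in PM (log2 ratio -2.08 with SE 0.17, adjusted p = 2.91e-05 by edgeR). APC, a scaffold that limits beta-catenin, had 45.8, 39.3 and 61.1 FPKM in GM, against 10.4, 8.34 and 8.13 FPKM in PM (log2 ratio 2.37 with SE 0.20, adjusted p = 6.55e-05 by edgeR, 1.52 with the trend removed). WNT3A was at 0 reads in all PM libraries and had 22, 12 and 15 reads in GM, at least 3.82-fold higher by CPM against a floor of 3 reads in each PM library.

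The remaining lists showed smaller or divided changes. Chaperones had 23 of 49 higher and 9 lower, led by the myosin-folding factors UNC45B, with 41.1, 39.6 and 84.1 FPKM in GM, against 8.14, 8.82 and 8.34 FPKM in PM (log2 ratio 2.63 with SE 0.34, adjusted p = 6.04e-04 by edgeR), and SMYD1, with 83.5, 83.7 and 143 FPKM in GM, against 19.9, 19.4 and 20.5 FPKM in PM (log2 ratio 2.30 with SE 0.25, adjusted p = 2.26e-04 by edgeR). Actin and focal adhesion genes had 13 of 40 higher and 20 lower (9 and 23 in the adjusted fit). MKL2, a coactivator of serum response factor, had 12.8, 11.6 and 12.1 FPKM in GM, against 2.98, 2.62 and 2.97 FPKM in PM (log2 ratio 2.00 with SE 0.11, adjusted p = 6.38e-06 by edgeR), and LASP1, an actin-binding adaptor, had 212, 186 and 148 FPKM in GM, against 365, 357 and 336 FPKM in PM (log2 ratio -1.04 with SE 0.11, adjusted p = 9.17e-05 by edgeR). The groups did not overlap for MKL2 or LASP1. Clock genes had 6 of 17 higher and 2 lower, and CLOCK had 17.9, 17.7 and 17.02 FPKM in GM, against 7.45, 6.04 and 5.45 FPKM in PM (log2 ratio 1.39 with SE 0.11, adjusted p = 2.92e-05 by edgeR). Hypoxia response genes had 9 of 20 higher and 8 lower, with the peptide hormone ADM at -1.46 and the oxygen sensor EGLN3 at 1.19. Among p53 targets and cell death genes 10 of 32 were higher and 12 lower. MDM2 and MDM4, the inhibitors of p53, were both higher, at 1.40 and 1.20, while RPS27L and FAS were lower, at -1.54 and -1.28. Amino acid supply had 16 of 40 higher and 10 lower, and cilium and Hedgehog genes had 14 of 46 higher and 13 lower. In the adjusted fit these became 14 higher and 13 lower for amino acid supply, and 8 higher and 16 lower for cilium and Hedgehog genes. Of 18 Hox genes, which mark body position, 1 was higher and 5 were lower, none of these by 2-fold, against 4 higher and 3 lower in the adjusted fit, where the median was 0.22 in place of 0.02. HOXA7, the most abundant of those called, had 24.6, 25.5 and 24.8 FPKM in GM, against 38.5, 33.4 and 33.8 FPKM in PM (log2 ratio -0.58 with SE 0.09, adjusted p = 6.20e-04 by edgeR).

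Genes that moved against the length trend were looked at by themselves. Among the 3561 shortest genes (43 to 1204 bp) 785 were higher and 1437 lower, and among the 3561 longest (2895 to 26070 bp) 1929 were higher and 601 lower. The largest rises of short genes were HBAD, HBAA, FGF13, LAPTM4B, FABP1, GJD2, MYLK4 and RASL10B. LAPTM4B, a lysosomal membrane protein, had 6.84, 8.76 and 6.10 FPKM in GM, against 0.542, 0.608 and 0.484 FPKM in PM (log2 ratio 3.63 with SE 0.26, adjusted p = 1.63e-05 by edgeR). FABP1, a fatty acid binding protein best known from liver, had 14.7, 13.95 and 24.1 FPKM in GM, against 1.66, 1.59 and 1.90 FPKM in PM (log2 ratio 3.26 with SE 0.30, adjusted p = 4.96e-05 by edgeR). RASL10B, a small GTPase, had 27.96, 26.03 and 57.2 FPKM in GM, against 4.07, 5.16 and 3.72 FPKM in PM (log2 ratio 3.04 with SE 0.39, adjusted p = 4.60e-04 by edgeR). The groups were well apart in all 3. HBAD, an alpha-type globin, had 41, 53 and 225 reads in GM and none in PM, at least 23.7-fold higher by CPM against a floor of 3 reads in each PM library, or at least 11.6-fold without GM replicate 3. HBAD and HBAA are close relatives whose reads the counting could have split between them.

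The largest falls of long genes were COL8A1, SERINC4, ITGA11, CSF3R, MYO1G, DPP4, SCIN and ATP2B2. SERINC4 had 11.4, 15.5 and 13.3 FPKM in GM, against 77.8, 77.8 and 80.1 FPKM in PM (log2 ratio -2.64 with SE 0.11, adjusted p = 3.06e-06 by edgeR, -3.22 with the trend removed). DPP4, a membrane peptidase, had 1.69, 2.29 and 2.14 FPKM in GM, against 8.63, 7.84 and 7.42 FPKM in PM (log2 ratio -2.05 with SE 0.14, adjusted p = 1.38e-05 by edgeR). SCIN, an actin-severing protein, had 2.29, 2.84 and 2.48 FPKM in GM, against 8.71, 8.81 and 8.80 FPKM in PM (log2 ratio -1.87 with SE 0.11, adjusted p = 7.91e-06 by edgeR). CSF3R and MYO1G, genes of myeloid and other blood cells, were lower at -2.35 and -2.13, and macrophage markers were lower beside them. In both sets every gene was called in the same direction once the length trend was removed, which the choice of these genes required.

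Several of the largest changes lay outside the lists. The 12 largest rises include 4 sarcomere genes, MYOM2, MYPN, MYBPC3 and ACTN2, with log2 fold changes of 4.21, 4.00, 3.64 and 3.62. Without GM replicate 3 these were 3.61, 3.50, 3.12 and 3.06. ACTN2 averaged 382 ± 193 FPKM in GM, against 29.5 ± 2.19 FPKM in PM. SLC16A6, a monocarboxylate transporter family member, had 13.4, 14.4 and 23.6 FPKM in GM, against 1.16, 0.624 and 0.888 FPKM in PM (log2 ratio 4.19 with SE 0.33, adjusted p = 4.10e-05 by edgeR). WIPF3, an actin regulator, had 59.6, 45.5 and 129.5 FPKM in GM, against 5.40, 4.89 and 4.80 FPKM in PM (log2 ratio 3.89 with SE 0.47, adjusted p = 4.42e-04 by edgeR), and 3.25 without GM replicate 3. REEP1, which shapes the endoplasmic reticulum, had 19.2, 20.7 and 45.2 FPKM in GM, against 2.46, 1.80 and 2.34 FPKM in PM. All 3 were higher in every GM library, and GM replicate 3 was the highest. ISYNA1, which makes inositol phosphate, had 17.4, 21.99 and 9.28 FPKM in GM, against 254, 272 and 278 FPKM in PM (log2 ratio -4.15 with SE 0.30, adjusted p = 5.19e-05 by edgeR). LIN7B, a scaffold of cell polarity, had 0.758, 0.983 and 1.13 FPKM in GM, against 14.7, 16.7 and 12.6 FPKM in PM (log2 ratio -4.0 with SE 0.24, adjusted p = 9.02e-06 by edgeR). S100A13, a calcium-binding protein of FGF1 release, had 1.23, 1.21 and 1.33 FPKM in GM, against 13.6, 14.5 and 13.4 FPKM in PM (log2 ratio -3.52 with SE 0.20, adjusted p = 7.37e-06 by edgeR). MLANA, a melanosome protein, had 17.9, 26.3 and 6.07 FPKM in GM, against 224, 211 and 237 FPKM in PM. It supplies most of the melanocyte marker sum in PM, so the lower sum in GM is not a separate result. The strand setting is unknown, so for any gene named here its own reads cannot be told apart from those of an overlapping or antisense gene.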

How the data were processed

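RNA sequencing (total RNA, standard Illumina libraries per the labels) was analysed for 3 GM and 3 PM samples, grouped by their titles. The authors deposited read counts and FPKM per gene in 1 table per sample. HISAT and HTSeq are named in the submitters' processing notes; for versions, build, annotation and strand the answer is: not given in the sources used here. FPKM values as deposited use the listed gene length, to a relative tolerance of 0.001, for 54.2 to 55.6% of well-counted genes. This share was taken over genes with at least 100 reads in the library. Only the Ensembl gene rows were used, 24881 genes of which 11078 carry a symbol, and 2 broken lines in each GM table were dropped. 

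Counts were tested with edgeR 4.0.16 (R 4.3.3): TMM scaling, filterByExpr, robust quasi-likelihood fit on these 6 libraries, group as the single term, Benjamini-Hochberg adjustment over 14244 genes. The standard error is the absolute log2 fold change over the square root of F. The length trend was removed with an offset from a lowess curve (span 0.3) of each library's log2 CPM on log10 listed length. On simulated data of the same size, edgeR called 92.5% of genes changed 2-fold and 53.7% of those changed 1.5-fold, and 16 that were unchanged. The changed genes were few (67 at each of these folds), well counted and balanced in direction, and no length trend was simulated. These shares need not hold for the real data, where far more genes were called.

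Genes were named by a rule: the 12 largest rises and falls with no overlap and at least 10 FPKM; up to 4 called members per list with no overlap and at least 5 FPKM; the 8 largest rises of short and falls of long genes that held without the length trend; and CTGF, CYR61, TGFB1, PAX7, MYF5, MYOD1 and MYOG. Some of these genes are left out of the text. The members, the 30 pathway and 10 marker lists and their subgroups were chosen with earlier results of these data known. Alternatives were DESeq2 1.42.0, limma 3.58.1 on log2(FPKM + 0.1) and log2(FPKM + 1), other filters, all 9 libraries, a replicate block, and each library left out. Same-numbered GM and PM samples did not deviate together (correlations 0.0352, -0.00516 and 0.0269), so numbers were not taken to pair samples. Depth sets the counting error, and a floor of 3 reads was used for genes with no read in PM. Coordinates are as deposited, in a build not given.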

Additional observations from a re-analysis of the deposited data

How the results depend on the processing

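Counts of called genes stayed within 1.5 times the values given above under every alternative run, with 3650 to 5273 genes higher in GM and 3388 to 5045 lower. DESeq2 called 4534 higher and 4530 lower, and 8905 of edgeR's 9254 calls were shared. Leaving out 1 library gave 4207 to 4882 higher and 3895 to 4830 lower. Genes at least 2-fold higher numbered 2197, against 1270 with at least 5 FPKM in 3 samples and 1423 with limma on log2(FPKM + 1). Genes at least 2-fold lower numbered 1536, against 913 and 953 under the same alternatives. Fewer genes are tested under the FPKM filter and the pseudocount shrinks low genes. limma on log2(FPKM + 0.1) put the median of all genes at 0.12.

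The replicate block, which treats equal numbers as pairs, gave 4628 higher and 4312 lower, and samples share only a number. The median of the shortest length bin, -0.25, was -0.25 with genomic span, -0.23 with 4 bins, -0.37 for genes of at least 5 FPKM, -0.27 with DESeq2 size factors, -0.29 with the length implied by counts and FPKM (added after seeing the data), and -0.29 to -0.25 with 1 library left out. The longest bin, 0.59, was 0.41 with 4 bins, 0.50 for genes of at least 5 FPKM, and 0.55 to 0.62 with 1 library left out. The cause of these shifts was not tested. None of the counts, the bin medians or the genes named by rule changed direction. Among other values, IGF2R was called higher in edgeR's test and lower with the length trend removed, where TFRC was at -0.03, and 4 list medians changed sign. Among named genes, MYOG lost its call without PM replicate 1 (edgeR adjusted p = 0.0515), MYOD1, FBN1, HOXB9, HOXA6 and GLI2 lost theirs with the length trend removed, RRP7A and RRP36 lost theirs with all 9 libraries (edgeR adjusted p = 0.0516 and 0.0508), without GM replicate 3 (0.106 and 0.115) and without replicate 3 in both groups (0.227 and 0.241), RRP36, HBAD and MYOG lost theirs with no filter on low counts (0.0526, 0.0618 and 0.0585), and MYF5 gained one under 8 alternatives. Without replicate 3 in both groups, an alternative added after seeing the data, 4575 genes were higher and 4545 lower.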

Other observations

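By chromosome, the 27 tested genes on W had a median log2 fold change of 1.32, and 20 were higher in GM and 0 lower by edgeR's test. W genes took 0.0371 to 0.0396% of reads in GM and 0.0158 to 0.0173% in PM. Z genes had a median of 0.00, with 215 of 626 higher and 205 lower. In chickens, W is carried by females. The sex of the embryos behind each library is not labelled. Of 15 mitochondrial genes 10 were higher and 2 lower, and mitochondrial genes took 3.81 to 4.92% of reads in GM and 3.03 to 3.39% in PM. Among the 2 is ENSGALG00000036956, described above, at 582, 20.9 and 599 FPKM in PM, so its fall rests on PM replicates 1 and 3. Genes on unplaced scaffolds had a median of -0.27, and 531 of 1340 were lower.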
